A study of Mus musculus with 8 samples.

Results

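Mouse embryonic stem (ES) cells were compared with cells after 2 days of in vitro differentiation. The microRNA machinery was followed in 6 of its genes: Drosha, Lin28a, Lin28b, Ago2, Tnrc6b and Tnrc6c. They were chosen by a rule on symbols, with earlier results of these data known, as the genes of the table named Ago1 to Ago4, Dicer1, Drosha, Dgcr8, Tnrc6a to Tnrc6c, Tarbp2, Lin28a or Lin28b. Of these 13 symbols, 6 had a row among the 3160 genes of the table, and Ago1, Ago3, Ago4, Dicer1, Dgcr8, Tnrc6a and Tarbp2 were not analysed here. The cells were E14Tg2A, an established mouse ES cell line of strain 129/Ola. ES cells (0 days in vitro) were grown with serum and leukemia inhibitory factor (LIF), and epiblast-like aggregates (ELA, 2 days in vitro) were the same cells floating in a defined medium with N2 and B27 and no serum or LIF. All cells of both stages were treated with cycloheximide before lysis, which stalls ribosomes on mRNA. From each lysate an aliquot gave total RNA (input), and an antibody against the endogenous ribosomal protein Rpl10a recovered RNA bound to ribosomes (Rpl10a-IP). With 2 stages and 2 fractions there were 4 groups of 2 libraries each. Both stages come from 1 cell line, and the labels do not say whether replicates came from separate cultures. The p-values thus measure the spread between these libraries only, pooled in part or in full over all genes.

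MicroRNAs are cut from their primary transcripts in the nucleus by Drosha with its partner Dgcr8, exported, cut again by Dicer1, and loaded onto an Argonaute protein to form the RNA-induced silencing complex (RISC). The loaded Argonaute pairs with mRNAs mainly through the seed of the microRNA, and the Tnrc6 (GW182) proteins bound to it recruit the deadenylases that shorten the poly(A) tail and lower translation. Lin28a and Lin28b bind precursors of the let-7 family and block their maturation, and ES cells depend on another family, which shares the seed of miR-294, for their rapid cycling.

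The mature sequences of both families are shown because their seeds set the sites searched in the 6 transcripts. They were taken from RefSeq (GRCm38.p6), and capitals mark the seed, bases 2 to 8. No microRNA was measured in these libraries.
let-7a-5p: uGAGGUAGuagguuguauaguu
let-7g-5p: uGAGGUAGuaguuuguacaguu
let-7i-5p: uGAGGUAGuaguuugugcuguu
miR-291a-3p: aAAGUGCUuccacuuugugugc
miR-294-3p: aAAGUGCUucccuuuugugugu
miR-295-3p: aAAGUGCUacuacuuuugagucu
miR-302b-3p: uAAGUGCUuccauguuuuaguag
The first seed is carried by 11 mature microRNAs of the RefSeq table and the second by 5. Matches to bases 2 to 8, CTACCTC for the let-7 seed and AGCACTT for the miR-294 seed, were searched on the sense strand of the annotated 3′ UTRs. Lin28b held 4 let-7 matches in a 3′ UTR of 4445 bases, Lin28a held 2 in 2775 bases, and Ago2 held 1 in 5283 bases. Drosha, with a 3′ UTR of 168 bases, held neither match. The miR-294 seed was matched 2 times in Tnrc6b (11610 bases), once in Tnrc6c (2588 bases) and once in Lin28b, and the Tnrc6 genes held no let-7 match. Among 19816 annotated 3′ UTRs, 8.23% held a let-7 match and 13.0% a miR-294 match. Among the 4203 UTRs of at least 2000 bases the shares were 19.6% and 33.6%, so matches are frequent in UTRs of this length.

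Of the 11 sites found, 9 are shown: all 7 let-7 matches, the first of the 2 miR-294 matches of Tnrc6b and that of Tnrc6c. They are given on the minus strand of NCBIM37 for Lin28a, Lin28b and Ago2 and on its plus strand for Tnrc6b and Tnrc6c, with the match in capitals and 8 bases on either side. They are letters found by search and not measured binding sites.
Lin28a, chr4:133561097-133561119: ctgttgaaCTACCTCatttttgc
Lin28a, chr4:133560459-133560481: ccacaaacCTACCTCactgtgtt
Lin28b, chr10:45100821-45100843: cgggaagtCTACCTCatgcaagc
Lin28b, chr10:45098447-45098469: gttagtaaCTACCTCtgagtttg
Lin28b, chr10:45098275-45098297: gcacatggCTACCTCccagctac
Lin28b, chr10:45096859-45096881: ggcaccgaCTACCTCttcaatca
Ago2, chr15:72932147-72932169: cataaaagCTACCTCtgacttct
Tnrc6b, chr15:80761750-80761772: aacatgctAGCACTTgtgtgata
Tnrc6c, chr11:117623440-117623462: gccggccgAGCACTTggacgtgg
Both Lin28a sites and the first of the Lin28b sites are followed by an A, and the other sites shown are not.

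Values are normalized read counts, that is, reads scaled by trimmed-mean-of-M-values (TMM) factors over the 8 libraries, and the ratio of Rpl10a-IP to input is called ribosome enrichment. This ratio compares a gene with the rest of its library. The Rpl10a-IP libraries held 16076207 to 23483388 reads over the 3160 genes, the ES input libraries 3898414 and 5380139, and the ELA input libraries 159587 and 410192. One read was thus worth 27.2 normalized counts in ELA input replicate 1 and 10.6 in replicate 2, and the 6 genes had 30 to 226 reads in the first and 96 to 789 in the second. The stage labels were checked against marker genes. The 5 of 10 listed naive markers in the table, Nanog, Klf4, Klf2, Tfcp2l1 and Fgf4, summed to 10519 to 11265 normalized counts in the ES libraries and to 1015 to 1686 in the ELA libraries, and all 5 were lower in ELA in both fractions. The 3 of 4 listed general pluripotency markers, Pou5f1, Sall4 and Lin28a itself, summed to 14248 to 15623 in the ES libraries and to 9723 to 13992 in the ELA libraries, with 1 higher and 1 lower in total RNA and 2 lower in bound RNA. Dnmt3a and Dnmt3b, 2 of 6 listed epiblast markers, were both higher in ELA, as was the neural progenitor marker Nes, 1 of 4 neural markers, while Vim, 1 of 5 fibroblast markers, was lower. Listed markers of primitive endoderm and mesoderm were not analysed here. Of the 30-base windows of the 6 transcripts, at most 0.558% occurred in transcripts of other genes, and none did for Drosha, Lin28a and Tnrc6c. In bulk RNA, fewer cells that express a gene and less RNA per cell cannot be told apart.

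Lin28b, Tnrc6b and Tnrc6c stood higher in every ELA library than in any ES library, in both fractions. The share of all genes that separate in this way was not counted, here or for the group orders given gene by gene below. Of all genes, 34.5% were called higher in ELA in total RNA and 41.1% in bound RNA. Ago2 rose in the ribosome-bound fraction, a direction that turned after correction for transcript length and GC content, and its change in total RNA did not pass the test. Drosha and Lin28a, the most abundant of the 6 per length of transcript, had the smallest differences in ribosome-bound RNA before that correction. With it the direction of Drosha turned as well.

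**Figure D1:**
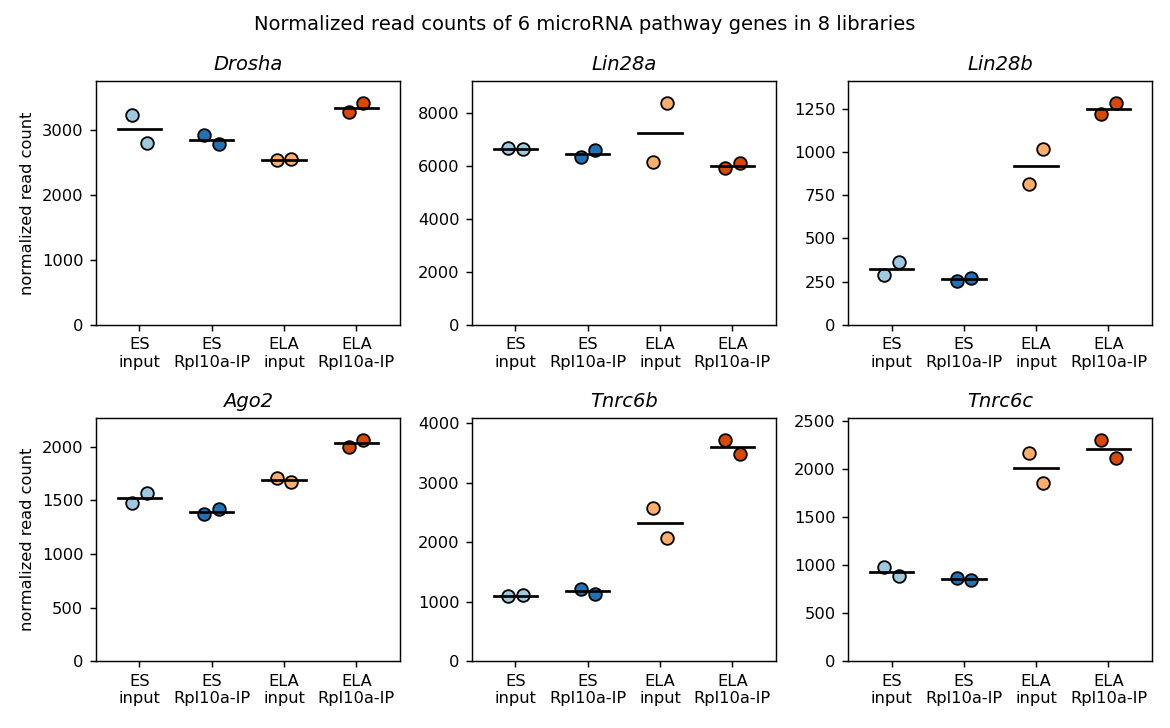
Normalized read counts (linear axis from 0) of the 6 genes in the 8 libraries, with each point 1 library, the left point of each pair replicate 1, and the line the mean of 2. Lin28b, Tnrc6b and Tnrc6c lie higher in all 4 ELA libraries than in all 4 ES libraries, Lin28a spans 6144 to 8364 between its ELA input libraries, and Ago2 is highest in ELA Rpl10a-IP.

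Drosha, the nuclear RNase III enzyme that makes the first cut, lies on chr15:12824804-12935291 (GRCm38.p6). Its normalized counts were 3232 and 2793 in ES input, 2921 and 2775 in ES Rpl10a-IP, 2529 and 2544 in ELA input and 3266 and 3408 in ELA Rpl10a-IP. The ELA Rpl10a-IP libraries were the highest and the ELA input libraries the lowest, while the ES fractions overlapped. Its ribosome enrichment was 0.904 and 0.994 in ES cells and 1.29 and 1.34 in ELA.

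In ELA the enrichment of Drosha was a log2 difference of 0.40 (SE 0.10, limma adjusted p = 0.00109). Its enrichment rose between the stages by 0.47 on the log2 scale (SE 0.15, adjusted p = 0.00716), a 1.39-fold change (95% interval 1.13 to 1.71). Its total RNA fell by 0.24 (SE 0.10, adjusted p = 0.0377) and its bound RNA rose by 0.23 (SE 0.09, adjusted p = 0.0129). Enrichment in ES cells was −0.08 (95% interval −0.25 to 0.10, adjusted p = 0.514). The fall in total RNA was lost without ES input replicate 1 (−0.14, adjusted p = 0.353) and without either ES Rpl10a-IP library (adjusted p = 0.0574 and 0.0572), and also with scaling by total reads (−0.18, adjusted p = 0.119) and with voom weights (−0.24, adjusted p = 0.0773). The rise in bound RNA was lost without ES Rpl10a-IP replicate 2 (0.19, adjusted p = 0.114) or ELA Rpl10a-IP replicate 2 (0.20, adjusted p = 0.0704), and the change in enrichment without ES input replicate 1 (0.37, adjusted p = 0.0711). The ELA enrichment kept its call without each library in turn. With the correction for transcript length and GC content the bound RNA of Drosha turned to −0.19 (adjusted p = 0.0221), and ELA enrichment and its change between the stages no longer passed (0.15, adjusted p = 0.154, and 0.14, adjusted p = 0.387).

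Lin28a, an RNA-binding protein that blocks let-7 maturation, lies on chr4:134003330-134019196 (GRCm38.p6). It had 6675 and 6625 normalized counts in ES input, 6340 and 6581 in ES Rpl10a-IP, 6144 and 8364 in ELA input and 5904 and 6115 in ELA Rpl10a-IP. The ELA input libraries lay on either side of all ES libraries, and the Rpl10a-IP libraries of ELA were the lowest of all. The enrichment ratios were 0.950 and 0.993 in ES cells and 0.961 and 0.731 in ELA, and they overlapped. The ELA ratio within the ES range, 0.961, is that of replicate 1, whose input library the study left out.

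The ribosome enrichment of Lin28a in ELA was −0.25 (SE 0.11, limma adjusted p = 0.0380). No other difference of Lin28a passed the threshold, although in the fit with a replicate block and the correction for transcript length and GC content total RNA (0.23, adjusted p = 0.0203) and the change in enrichment (−0.35, adjusted p = 0.0149) did. The change in total RNA was 0.11 (95% interval −0.12 to 0.33, adjusted p = 0.383), that in bound RNA −0.10 (−0.28 to 0.07, adjusted p = 0.256), that in enrichment −0.21 (−0.53 to 0.11, adjusted p = 0.253), and the enrichment in ES cells −0.04 (−0.21 to 0.13, adjusted p = 0.735). Its values rest on which ELA input library is used, and replicate 1 is the one that the study left out as poor. Without replicate 1, total RNA changed by 0.33 (adjusted p = 0.00333), enrichment in ELA was −0.48 (adjusted p = 1.67e-05) and the change in enrichment was −0.44 (adjusted p = 0.00348). Without replicate 2 the same values were −0.11, −0.03 and 0.01 (adjusted p = 0.334, 0.792 and 0.957). The ELA enrichment call was also lost without ES input replicate 1 or 2 (adjusted p = 0.0694 and 0.0697) and without ELA Rpl10a-IP replicate 1 or 2 (adjusted p = 0.150 and 0.0787). A long noncoding RNA gene, Gm13061, overlaps Lin28a on the opposite strand, and the strand used in counting was not stated, so reads of the pair cannot be told apart.

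Lin28b, the paralog of Lin28a with the same action on let-7, lies on chr10:45376617-45486314 (GRCm38.p6). Its normalized counts were 288 and 363 in ES input, 252 and 273 in ES Rpl10a-IP, 816 and 1018 in ELA input and 1219 and 1283 in ELA Rpl10a-IP. All 4 groups were separate, in the order ELA Rpl10a-IP, ELA input, ES input, ES Rpl10a-IP. The ELA input values rest on 30 and 96 reads. Its ribosome enrichment lay below 1 in both ES replicates, 0.877 and 0.753, and above 1 in both ELA replicates, 1.49 and 1.26.

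Lin28b rose by 1.49 on the log2 scale in total RNA (SE 0.13, limma adjusted p = 2.55e-12) and by 2.25 in ribosome-bound RNA (SE 0.10, adjusted p = 4.62e-103), that is 2.81-fold (95% interval 2.35 to 3.38) and 4.75-fold (4.13 to 5.46). Of the 3160 genes, 74 ranked at or above it in the change of bound RNA and 163 in the change of total RNA, with Lin28b itself counted. Its enrichment was −0.30 in ES cells (SE 0.10, adjusted p = 0.0122) and 0.46 in ELA (SE 0.13, adjusted p = 0.00208), and the change between the stages was 0.75 (SE 0.18, adjusted p = 0.00074), a 1.69-fold change (1.30 to 2.18). The ES enrichment was lost without ES input replicate 2 (−0.13, adjusted p = 0.388), without ES Rpl10a-IP replicate 1 (−0.24, adjusted p = 0.199) and with all 8 libraries in the fit (adjusted p = 0.0871), and was −0.46 without ES input replicate 1. The ELA enrichment was 0.30 without ELA input replicate 1 (adjusted p = 0.0247). The other calls of Lin28b held in every alternative run.

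Because both paralogs were read in the same libraries, their levels per kilobase of transcript can be set against each other. This ratio and those of other pairs were chosen after the values were seen and carry no test. Lin28a exceeded Lin28b 35.8-fold and 28.1-fold in ES input and 38.7-fold and 37.1-fold in ES Rpl10a-IP. In ELA the ratio was 11.6 and 12.7 in input and 7.47 and 7.34 in Rpl10a-IP. Lin28a thus remained the more abundant paralog in all 8 libraries, by a smaller factor in each ELA library than in each ES library.

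Ago2, the Argonaute protein that can itself cleave a paired mRNA, lies on chr15:73101625-73184947 (GRCm38.p6). Its normalized counts were 1474 and 1565 in ES input, 1369 and 1424 in ES Rpl10a-IP, 1713 and 1675 in ELA input and 1998 and 2064 in ELA Rpl10a-IP. No neighbouring groups overlapped, and the fractions stood in opposite order in the 2 stages: input was above Rpl10a-IP in ES cells and below it in ELA. The 2 ELA input values rest on 63 and 158 reads. The enrichment ratios were 0.929 and 0.910 in ES cells and 1.17 and 1.23 in ELA.

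The ribosome-bound RNA of Ago2 rose by 0.54 on the log2 scale (SE 0.09, limma adjusted p = 7.19e-09), a 1.45-fold change (95% interval 1.28 to 1.65). With each library corrected for transcript length and GC content this value was −0.19 (adjusted p = 0.0328). Its total RNA changed by 0.16 (95% interval −0.06 to 0.37, adjusted p = 0.186), which did not pass the threshold. Enrichment in ES cells was −0.12 (−0.30 to 0.06, adjusted p = 0.3002) and enrichment in ELA 0.26 (SE 0.11, adjusted p = 0.0265). The change in enrichment was 0.38 (SE 0.15, adjusted p = 0.0294), 1.30-fold (1.06 to 1.61). The same correction turned these to −0.29 (adjusted p = 0.00902) in ELA enrichment and −0.14 (adjusted p = 0.397) in the change. That call was lost without ES input replicate 2 (0.34, adjusted p = 0.101), ES Rpl10a-IP replicate 1 (0.36, 0.121), ES Rpl10a-IP replicate 2 (0.41, 0.0722), ELA Rpl10a-IP replicate 1 (0.41, 0.0542) or ELA Rpl10a-IP replicate 2 (0.36, 0.0882), and the ELA enrichment was lost without ELA Rpl10a-IP replicate 1 (0.29, adjusted p = 0.0647) or replicate 2 (0.24, adjusted p = 0.120). Scaling by total reads also ended both calls (0.29, adjusted p = 0.100, and 0.15, adjusted p = 0.2001), as did voom weights for the ELA enrichment (0.26, adjusted p = 0.0661).

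Tnrc6b and Tnrc6c are GW182 scaffold proteins that link Argonaute to the deadenylases. Tnrc6b lies on chr15:80711313-80941086 and Tnrc6c on chr11:117653703-117763439 (GRCm38.p6). Tnrc6b had 1099 and 1109 normalized counts in ES input, 1215 and 1137 in ES Rpl10a-IP, 2583 and 2067 in ELA input and 3723 and 3492 in ELA Rpl10a-IP. Tnrc6c had 978 and 890 in ES input, 865 and 850 in ES Rpl10a-IP, 2175 and 1855 in ELA input and 2306 and 2118 in ELA Rpl10a-IP. Both genes were higher in every ELA library than in any ES library. The ELA fractions were separate for Tnrc6b and overlapped for Tnrc6c.

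Total RNA of the 2 scaffolds rose by nearly the same amount, 1.06 for Tnrc6b (SE 0.11, limma adjusted p = 2.91e-10) and 1.11 for Tnrc6c (SE 0.11, adjusted p = 1.20e-10). Their bound RNA rose by 1.62 (SE 0.09, adjusted p = 6.65e-68) and 1.37 (SE 0.09, adjusted p = 2.89e-47), or 3.07-fold (95% interval 2.71 to 3.47) and 2.58-fold (2.27 to 2.92). Corrected for transcript length and GC content, the rises in bound RNA were 0.41 (adjusted p = 1.49e-05) and 0.47 (adjusted p = 3.32e-06). The enrichment ratio of Tnrc6b was 1.11 and 1.03 in ES cells and 1.44 and 1.69 in ELA, and that of Tnrc6c was 0.884 and 0.955 in ES cells and 1.06 and 1.14 in ELA. For Tnrc6b the ELA enrichment was 0.64 (SE 0.11, adjusted p = 5.12e-06) and the change between the stages 0.55 (SE 0.16, adjusted p = 0.00367). Both turned with the correction for transcript length and GC content, to −0.32 (adjusted p = 0.00489) and −0.40 (adjusted p = 0.0187). For Tnrc6c the ELA enrichment was 0.14 (95% interval −0.09 to 0.37, adjusted p = 0.268) and the change 0.26 (−0.06 to 0.58, adjusted p = 0.164). Neither passed, although without ELA input replicate 1 they were 0.25 (adjusted p = 0.0364) and 0.37 (adjusted p = 0.0198), and with the correction for length and GC content they turned to −0.41 (adjusted p = 0.000429) and −0.30 (adjusted p = 0.0678). In ES cells the enrichment was 0.09 for Tnrc6b (−0.09 to 0.27, adjusted p = 0.452) and −0.12 for Tnrc6c (−0.30 to 0.06, adjusted p = 0.308). The difference between the paralogs in enrichment was not tested.

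Tnrc6b stood at 0.351 and 0.334 of the Ago2 level per kilobase in ES input and at 0.418 and 0.376 in ES Rpl10a-IP. In ELA it stood at 0.711 and 0.582 in input and at 0.878 and 0.797 in Rpl10a-IP. The scaffold was below Ago2 per length in all 8 libraries and nearer to it in each ELA library. Per kilobase, the mean levels in ES input ran from 1897 ± 10.0 (SD, n = 2) for Lin28a and 659 ± 67.9 for Drosha through 189 ± 8.002 for Ago2 and 106 ± 7.01 for Tnrc6c to 64.8 ± 0.423 for Tnrc6b and 60.2 ± 9.83 for Lin28b. In ELA Rpl10a-IP they were 1715 ± 42.5 for Lin28a, 730 ± 22.1 for Drosha, 253 ± 5.83 for Ago2, 250 ± 15.1 for Tnrc6c, 232 ± 8.46 for Lin28b and 212 ± 9.59 for Tnrc6b. The last pair of ES input overlapped, and in ELA Rpl10a-IP so did Ago2 with Tnrc6c. These levels divide by the longest annotated transcript, and another isoform in use would change them.

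**Figure D2:**
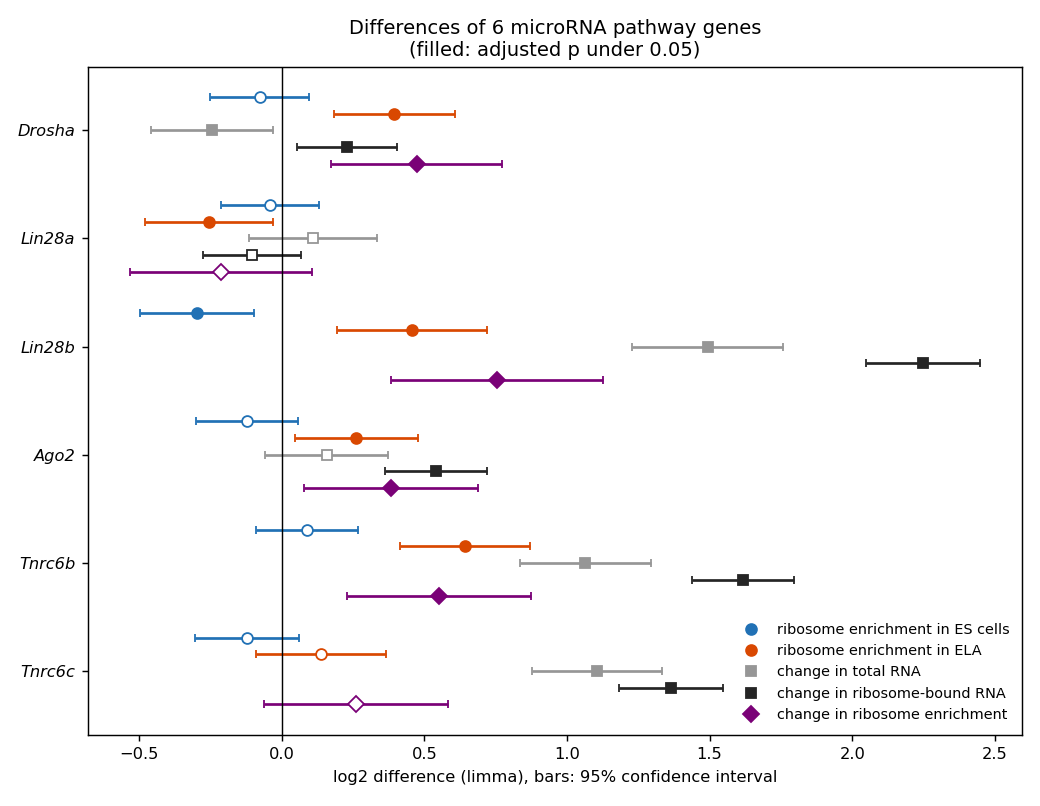
Log2 differences of the 6 genes in the 5 comparisons with 95% confidence intervals from limma, filled where the adjusted p is under 0.05. Bound RNA rises furthest for Lin28b (2.25), Tnrc6b (1.62) and Tnrc6c (1.37), and in ES cells 5 of the 6 enrichment intervals include 0.

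Of the 6 genes, 1 passed the test for ribosome enrichment in ES cells, Lin28b, where 39.5% of all genes did (19.5% higher and 20% lower). With all 8 libraries in that fit, 0 of the 6 and 762 of the 3160 genes passed. In ELA 5 of 6 passed, where 74% of all genes did (36.8% higher and 37.2% lower), with Drosha, Lin28b, Ago2 and Tnrc6b higher in the bound fraction and Lin28a lower. For total RNA 4 of 6 passed, against 70.2% of all genes (34.5% higher and 35.8% lower), with Lin28b, Tnrc6b and Tnrc6c higher and Drosha lower. For ribosome-bound RNA 5 of 6 passed, all higher in ELA, where 83.4% of all genes passed, 41.1% higher and 42.3% lower. The change in enrichment passed for 4 of 6, all higher in ELA, where 56.2% of all genes passed, 28.4% higher and 27.7% lower. With 6 genes these counts are a description, and no test of the group was made. After the correction for transcript length and GC content given with the transcript lengths, 1 was higher and 4 were lower in ELA enrichment (1120 and 1124 of 3121 genes), 3 were higher and 2 lower in bound RNA (1177 and 1210 genes), and 1 was higher and 1 lower in the change of enrichment (790 and 768 genes). With the deposited size factors 4 were higher and 1 lower in bound RNA (1147 and 1463 of 3160 genes). The median log2 difference of the 6 was −0.10 in ES enrichment (all genes −0.02), 0.33 in ELA enrichment (−0.01), 0.61 in total RNA (−0.02), 0.95 in bound RNA (−0.02) and 0.43 in the change of enrichment (0.01). By ratios alone, 5 of 6 genes had both ELA enrichment ratios above both ES ratios, as did 40.7% of all genes, while 79.8% of all genes were separate in either direction (39.1% lower). These 5 comparisons share libraries, so their counts are not separate evidence.

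**Figure D3:**
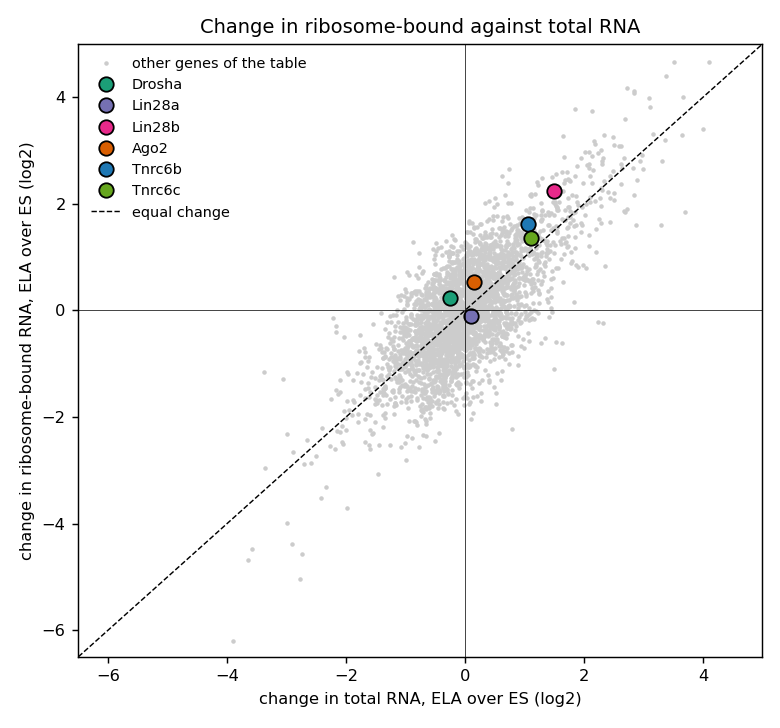
Change from ES to ELA in ribosome-bound RNA against total RNA (both log2) for the 3160 genes, with the 6 microRNA pathway genes colored and the dashed line marking equal change. Lin28b (1.49 and 2.25), Tnrc6b, Tnrc6c, Ago2 and Drosha lie above the line and Lin28a (0.11 and −0.10) lies below it.

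Transcript length moved with these differences over the whole table. The longest annotated transcripts of the 6 genes were 17043 bases for Tnrc6b, 8847 for Tnrc6c, 8031 for Ago2, 5402 for Lin28b, 4570 for Drosha and 3505 for Lin28a, while the median of the 3121 genes with a length was 3694. Spearman's rho with length over those genes was 0.443 for the change in enrichment, 0.438 for ELA enrichment, 0.605 for the change in bound RNA, 0.364 for total RNA and 0.174 for ES enrichment, as a description across genes that share libraries. The median change in enrichment ran from −0.48 in 505 genes under 2000 bases to 0.52 in 144 genes of 8000 to 10000 bases and 0.81 in 103 genes above 10000 bases. Ago2 (0.38) and Tnrc6c (0.26) lay under the median of their length class, 0.52, and Tnrc6b (0.55) under that of its class. Lin28b (0.75) and Drosha (0.47) lay above the median of 4000 to 6000 bases, 0.14, and Lin28a (−0.21) under that of 2000 to 4000 bases, −0.10.

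Each library was corrected for transcript length and GC content, with the replicate number as a block as listed in the design and, as an alternative chosen after seeing the data, without it. The log2 values were the same in both, and the adjusted p-values given are without the block. Lin28b kept its rises, 1.06 in total RNA (adjusted p = 1.79e-08), 1.86 in bound RNA (adjusted p = 2.60e-16) and 0.80 in the change of enrichment (adjusted p = 0.000301). The rises of Tnrc6b and Tnrc6c in total RNA (0.80 and 0.76) and in bound RNA (0.41 and 0.47) also kept their calls, at a smaller size. The change in enrichment turned to −0.40 for Tnrc6b (adjusted p = 0.0187), −0.30 for Tnrc6c (adjusted p = 0.0678) and −0.14 for Ago2 (adjusted p = 0.397), and was 0.14 for Drosha (adjusted p = 0.387). ELA enrichment turned to −0.32, −0.41 and −0.29 for Tnrc6b, Tnrc6c and Ago2, each past the threshold, and was 0.15 for Drosha (adjusted p = 0.154). The change in bound RNA turned to −0.19 for both Ago2 (adjusted p = 0.0328) and Drosha (adjusted p = 0.0221). The gains in ribosome enrichment of Ago2, Tnrc6b and Drosha were thus measured against all genes, and against genes of like length and GC content they turned or did not pass the test.

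**Figure D4:**
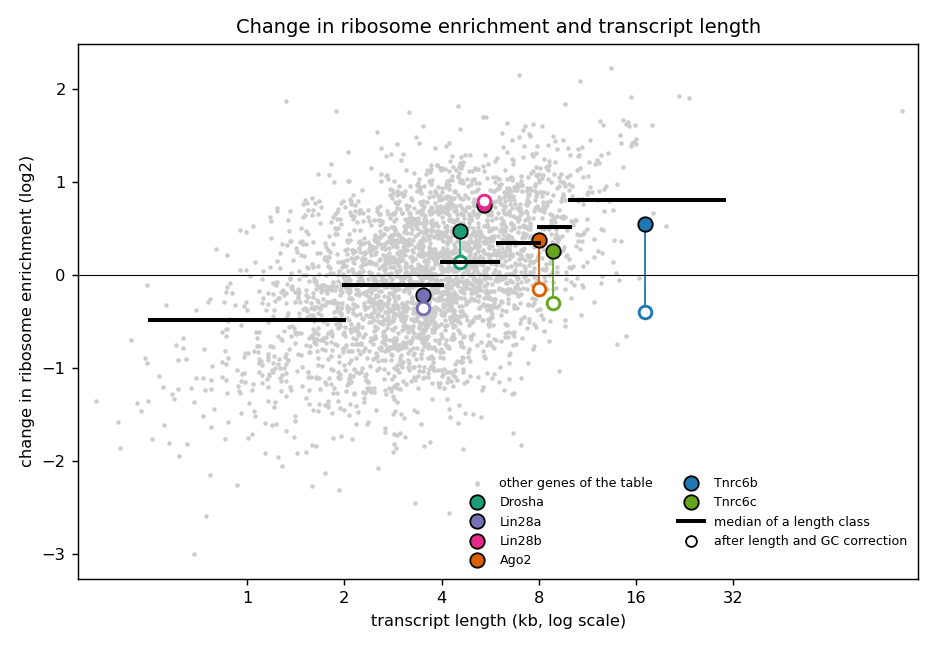
Change in ribosome enrichment from ES to ELA (log2) against transcript length (log axis) for the 3121 genes with a length, black bars giving the median of each length class (the first and last classes are open-ended), filled points the 6 genes and open points the same genes after correction for length and GC content. Lin28b stays near 0.8 while Tnrc6b moves from 0.55 to −0.40 and Ago2 from 0.38 to −0.14.

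Likeness over the 8 libraries was measured as the root mean square difference of log2 counts after each gene was centred on its own mean. The genes nearest to Ago2 were Ccnt2 (0.035), Fam178a (0.045), Slc44a2 (0.052), Zbed4 (0.061) and Ap3b1 (0.064), against a median of 0.44 over all genes. Ppfia1 and Mre11a were nearest to Drosha, Tor3a and Fdft1 to Lin28a, Hdx and Cand2 to Lin28b, Spata13 and Pfkm to Tnrc6b, and Ccdc93 and Chd3 to Tnrc6c, at 0.050 to 0.132. Among the 6 genes the closest pairs were Ago2 with Drosha (0.202) and Tnrc6b with Tnrc6c (0.206), and the farthest was Lin28a with Lin28b (0.976). The Tnrc6 pair lay closer than the medians over all genes, 0.79 for Tnrc6b and 0.71 for Tnrc6c. The Lin28 pair lay above the median for Lin28a, 0.43, and near that for Lin28b, 1.01.

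Other genes of the pathway were listed by role, and 45 of 81 listed genes had a row. Their differences are given on the log2 scale and were not corrected for transcript length. In the change of ribosome enrichment 10 were higher, 15 lower and 20 not called, with a median of −0.16 against 0.01 for all genes. In total RNA 12 were higher and 17 lower, in bound RNA 13 and 21, in ELA enrichment 11 and 21, and in ES enrichment 8 and 9. Over the whole table the higher and lower calls in the same order were 28.4% and 27.7% of genes, 34.5% and 35.8%, 41.1% and 42.3%, 36.8% and 37.2%, and 19.5% and 20%. The list was not tested as a group.

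The counts by role that follow are small and stand beside 28.4% higher and 27.7% lower over all genes in the change of enrichment. Among 7 cofactors of nuclear processing, this change was higher for 2 and lower for 4. Hnrnpa2b1, a reader of primary microRNA transcripts, was lower in the bound fraction in ES cells (−0.49, adjusted p = 4.63e-07). Among 6 export and loading factors, 2 were higher and 2 lower. Xpo5, the exportin that carries precursors out of the nucleus, had 1587 and 1556 normalized counts in ES input, 1708 and 1713 in ES Rpl10a-IP, 1088 and 1293 in ELA input and 2837 and 3027 in ELA Rpl10a-IP. Its bound RNA was thus highest and its total RNA lowest in ELA, and its enrichment rose between the stages by 1.18 (SE 0.15, limma adjusted p = 1.05e-07) to an ELA enrichment of 1.30. Ptges3, the Hsp90 cochaperone p23, had 9912 and 10063 normalized counts in ES input, 12752 and 12373 in ES Rpl10a-IP, 12588 and 12508 in ELA input and 5792 and 5762 in ELA Rpl10a-IP. It went the other way, with a change in enrichment of −1.45 (SE 0.13, adjusted p = 1.67e-10) and in bound RNA of −1.12.

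Among 12 deadenylation factors, the change in enrichment was higher for 3 and lower for 4. Cnot1, the scaffold of the CCR4-NOT complex that Tnrc6 proteins recruit, was enriched in ES cells (0.38, adjusted p = 8.62e-05) and rose in bound RNA (1.01, adjusted p = 3.46e-30), where the median of genes with transcripts of 8000 to 10000 bases, the class of its 8394 bases, was 0.99. Pabpc1, the poly(A)-binding protein, was low in the bound fraction in ES cells (−0.64, adjusted p = 1.22e-11). Tob1, an antiproliferative protein that binds the complex, rose in total RNA by 1.12 while its enrichment fell by 1.26 (adjusted p = 6.70e-06), with an ELA enrichment of −1.40, with 15 and 39 reads in ELA input.

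Of 5 decapping and decay genes, 1 was higher in the change of enrichment and the other 4 did not pass. Patl1, a decapping activator, was low in the bound fraction of ES cells (−0.39, adjusted p = 0.000403) and Gigyf1, a partner of the cap-binding repressor Eif4e2, rose in total RNA by 1.19. Of 4 turnover genes 1 was higher and 3 did not pass. Among 11 RNA-binding proteins that associate with Argonaute, 1 was higher and 5 lower. The helicase Mov10 fell by 2.07 in total RNA (limma adjusted p = 2.84e-14) and changed by −2.47 in bound RNA (adjusted p = 1.93e-94). Its 6 and 11 reads in ELA input are too few for so small a p-value in total RNA. Igf2bp2 rose in total RNA by 1.39 while its enrichment fell by 1.02 (adjusted p = 1.32e-06) to an ELA enrichment of −1.26. Elavl1, which binds AU-rich elements, fell in enrichment by 1.15 (adjusted p = 1.10e-06) to an ELA enrichment of −1.16, and Fam120a rose in bound RNA by 1.15 (adjusted p = 1.66e-33).

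**Figure D5:**
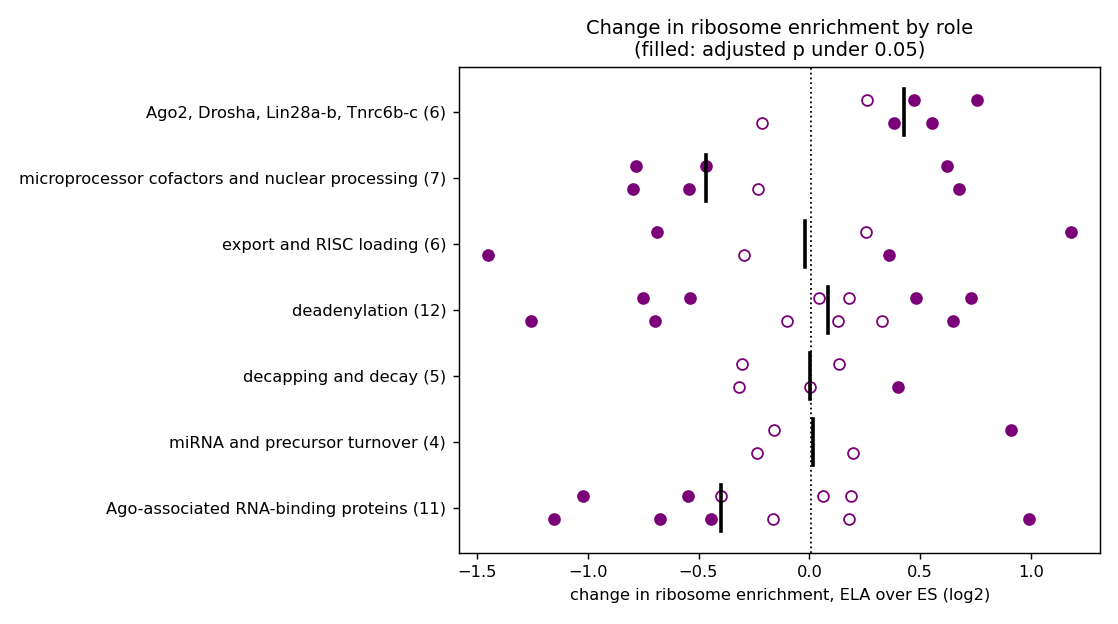
Change in ribosome enrichment from ES to ELA (log2) of the 6 genes and of 45 other pathway genes by role, each point 1 gene, filled where the adjusted p is under 0.05, with the black bar the median of a role and the dotted line the median of all genes. The roles spread to both sides of 0, from Ptges3 at −1.45 to Xpo5 at 1.18.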

How the data were processed

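RNA was measured in 8 libraries of ES cells and ELA. The authors mapped reads to mm10 with TopHat2, counted them per gene with htseq-count and divided by size factors, which gave the deposited signal values. All deposited values were multiples of the worth of 1 read in their library (tolerance 0.01), so reads were read back. Scaled by TMM factors over the 8 libraries, these reads gave the normalised counts used here. The deposited table was filtered: the larger mean input count was at least 50.02 and the SD of the 2 ratios at most 0.1998 of their mean, so replicates lie close and adjusted p-values are too small. Columns whose names hold Ribo were read as Rpl10a-IP, and replicate numbers follow the sample titles. The other 26 columns, among them the authors' means and ratios, were not used.

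TMM factors over 8 libraries and limma (3.58.1, R 4.3.3; lmFit, eBayes with trend) on log2(normalised count + 1), which understates changes of low genes, were applied to all 3160 genes, with Benjamini-Hochberg adjustment and a threshold of 0.05. ES enrichment and bound RNA used 7 libraries, without ELA input replicate 1, and the other comparisons used 8. The study's methods leave that library out for lower complexity, more duplicate reads and poor correlation with the other libraries. In ES enrichment and bound RNA the fit took each gene's spread wholly from the trend over all genes. Very small p-values there do not rest on the gene's own replicates. All genes matched by the rule were named, with up to 4 called list genes per comparison of largest change and those past 1 in the change of enrichment. The members and lists were chosen with earlier results of these data known. Lengths and 3′ UTRs came from GENCODE transcripts on NCBIM37, gene positions from RefSeq on GRCm38.p6. The code was tested on simulated data.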

Additional observations from a re-analysis of the deposited data

Results flagged for a closer look

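The difference between ELA and ES cells in ribosome enrichment, tested as an interaction of stage and fraction with limma, passed the threshold for 4 of the 6 genes. The log2 change was 0.38 for Ago2 (adjusted p = 0.0294), 0.47 for Drosha (adjusted p = 0.00716), 0.75 for Lin28b (adjusted p = 0.00074) and 0.55 for Tnrc6b (adjusted p = 0.00367). Of all genes, 56.2% passed the same test. After correction for transcript length and GC content the values were −0.14, 0.14, 0.80 and −0.40, in the same order. Groups of 2 libraries are too small to test for a library far from the others. From clustering, mapping and duplication, the study judged ELA input replicate 1 poor and left it out. The 4 calls above come from fits that keep it.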

How the results depend on the processing

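Over the single-gene results, settings other than the length and GC correction gave 462 values with the direction and side of the threshold of the main fit, 28 that lost the threshold, 5 that gained it and 3 that reversed. The reversals were Drosha in ES enrichment without ES input replicate 1 (0.028, range leaving out 1 library −0.18 to 0.028) and, without ELA input replicate 2, Lin28a in total RNA (−0.11, range −0.11 to 0.33) and in the change of enrichment (0.0096, range −0.44 to 0.0096). With the correction, 22 of 60 values reversed. In a fit with the replicate number as a replicate block and the correction together, and with the correction alone, these were 0.0079 for Drosha and 0.016 for Lin28a in ES enrichment, −0.29 (Ago2), −0.32 (Tnrc6b) and −0.41 (Tnrc6c) in ELA enrichment, −0.044 (Ago2) in total RNA, −0.19 (Ago2) and −0.19 (Drosha) in bound RNA, and −0.14 (Ago2), −0.40 (Tnrc6b) and −0.30 (Tnrc6c) in the change of enrichment. The cause was not tested.

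In ES enrichment 1247 genes passed, 762 with all 8 libraries and 722 to 1348 leaving out 1 library, and of the 6 genes 1 passed, 0 with all 8 libraries and 0 to 1 leaving out 1 library. Among genes with at least 20 reads in both ELA input libraries (fewer genes were tested), 1486, 1350, 1632 and 1173 passed in ELA enrichment, total RNA, bound RNA and the change of enrichment. Leaving out 1 library, 3 to 6, 3 to 5, 4 to 5 and 3 to 6 of the 6 genes passed in these 4, beside 2087 to 2369, 1898 to 2289, 2404 to 2655 and 1433 to 1938 of all 3160 genes. In the change of enrichment 2 of the 6 passed with the correction alone (1558 of 3121 genes) and 3 with the replicate block and the correction (1662 genes). Same-numbered libraries deviated together with r = 0.170 (ES input and Rpl10a-IP), 0.504 (ELA) and 0.153 (inputs), and with −0.0246 between the Rpl10a-IP groups. Input and Rpl10a-IP were taken from the same lysates, but no label says that a shared number marks a shared lysate. The main fits did not pair them. The replicate block gave 1894 genes in the change of enrichment in place of 1775, and 4 of the 6 genes in both. It moved no count by over 1.5 times, nor did the lysate as a block (1940 genes).

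Scaling by total reads moved the median of all genes in ELA enrichment to −0.12, and the deposited factors moved it to −0.12 in total RNA and −0.14 in bound RNA, where Drosha was 0.12 (adjusted p = 0.260) and Lin28a −0.22 (adjusted p = 0.0340). The deposited factors were set within each fraction, so for both enrichments they were run centred on the median of all genes, an alternative chosen after seeing the data, and Lin28a in ELA was then −0.23 (adjusted p = 0.0718). The planned edgeR test was not run, and limma with voom weights was the alternative run on the reads read back. The depth of the ELA input libraries, with 26 and 66 reads for the median gene, limits every comparison that uses them.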
